A study of Mus musculus with 7 samples.

Results

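Semaphorins and their plexin receptors were examined in mouse glioma tumours, through 9 genes of the 32285 counted. Sema3c, Sema3a and Sema3e encode secreted class 3 semaphorins. Sema4d and Sema6a encode membrane-bound ligands, and Plxnd1, Plxna2, Plxnb1 and Plxnb2 encode receptors. The genes were chosen by symbol with results of these data known, among them a higher Sema3c level in tumour cells of the CD40 library than of IgG replicate 2, so levels in that comparison are described and not tested. All 9 symbols were found, each on 1 gene.

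Semaphorins are guidance cues, first studied for how they repel or attract growing axons. A semaphorin binds a plexin, whose cytoplasmic part acts on small GTPases and so on the cytoskeleton and on adhesion through integrins. Most class 3 semaphorins need a neuropilin as co-receptor, and Sema3e, which binds Plxnd1 directly, is an exception. In brain tumours, semaphorins are known for roles in blood vessels, glioma stem cells and immune cells.

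The tumours were grown in C57BL/6 mice (genotype WT, 7 to 10 weeks old) from NSCG-mCherry, a glioma line stated to carry EGFRvIII, a shortened, active form of the EGF receptor, and to lack Arf/Ink4a. Whole tumours of at least 2 mice were pooled for each library at about day 14, and RNA was counted per cell with a droplet 3′ kit. UT (1 library) was untreated. The IgG group (2 libraries) had an IgG2b isotype control at 10 mg/kg every 3 days. The BP group (2 libraries) had the VEGF-blocking antibody B20 (5 mg/kg) together with anti-PD-L1 (10 mg/kg) on the same schedule. For IgG and BP, injections began on day 6 to 7. BPI (1 library) had BP plus a daily gavage of 10 mg/kg IPI-145, which blocks the delta and gamma forms of PI3K. CD40 (1 library) had 2 doses of 100 µg of an agonist antibody against CD40, given 5 days apart; the labels do not settle whether a dendritic cell vaccine was given with it. The series set out to trace the adaptation of malignant and immune cells to such therapies. The series text speaks of 3 rounds of treatment before collection, which cannot hold for UT or for the 2 doses of CD40.

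Libraries held 68997476 to 186793886 unique molecular identifiers (UMIs, 1 per captured RNA molecule), and 5373 to 9650 cells were kept, with a median of 8583 to 17434 UMIs per cell. Any pair of libraries shared 0 to 23 cell barcodes, at most 0.320% of the smaller library. The barcodes of UT come from a list other than that of the other libraries, so a lack of treatment cannot be told apart from this difference. Library names run consecutively in IgG replicate 1, BP replicate 2 and BPI (called set A here) and in CD40 and IgG replicate 2 (set B), while UT and BP replicate 1 stand alone. Cells were grouped by clustering and named from marker genes. The tumour-like cells of set A lay mostly in 3 clusters of their own, in each of which 3 of 12 tumour markers were raised. UT, BP replicate 1 and set B filled other tumour-like clusters, with 8 to 11 of 12 raised. Clusters of T-like cells had 9 of 9 T markers raised, of microglia-like cells 7 of 7 and of monocyte/macrophage-like cells 9 of 9. The microglia-like class has 2 clusters that libraries fill unequally. Cluster 14, in which 7 of 9 monocyte/macrophage markers were raised too, held 121 of 151 such cells of UT and 256 of 261 of BP replicate 1, and cluster 15 held most of those of each other library. Microglia-like values of UT and BP replicate 1 are thus set against those of another cluster. The 3 endothelial-like clusters had 10 of 10 raised, but only UT, BP replicate 1, CD40 and IgG replicate 2 had at least 20 such cells (33 to 135). A level below is the gene's UMIs per 1000000 UMIs (CPM) of that class in 1 library. The 3′ counts are not scaled by gene length. RNA free in the suspension was profiled from barcodes with at most 100 UMIs, and the largest share of a level that it could make up is given where it matters.

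Sema3c (ENSMUSG00000028780, GRCm38 chromosome 5, 17574281 to 17730268, plus strand) encodes a secreted ligand that signals through neuropilins with Plxnd1 or A plexins. In tumour-like cells, with replicates 1 and 2 in that order, it had 0.645 CPM in UT, 60.8 and 20.3 CPM in IgG, 5.92 and 68.1 CPM in BP, 34.3 CPM in BPI and 70.7 CPM in CD40. The BP replicates lay on both sides of both IgG replicates, and UT was the lowest of all. These levels rest on 37 UMIs in UT and 615 to 7035 UMIs in the other libraries, so counting error is small beside the distance between libraries: the exact 95% Poisson interval was 19.5 to 21.1 CPM in IgG replicate 2 and 69.1 to 72.4 CPM in CD40. The interval covers counting error only, as do all intervals here. Free RNA could make up at most 66.8% of the level in UT, 52.3% in BPI, 39.4% in IgG replicate 2, 35.2% in BP replicate 2, 31.7% in IgG replicate 1, 25.3% in BP replicate 1 and 12.8% in CD40.

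**Figure D1:**
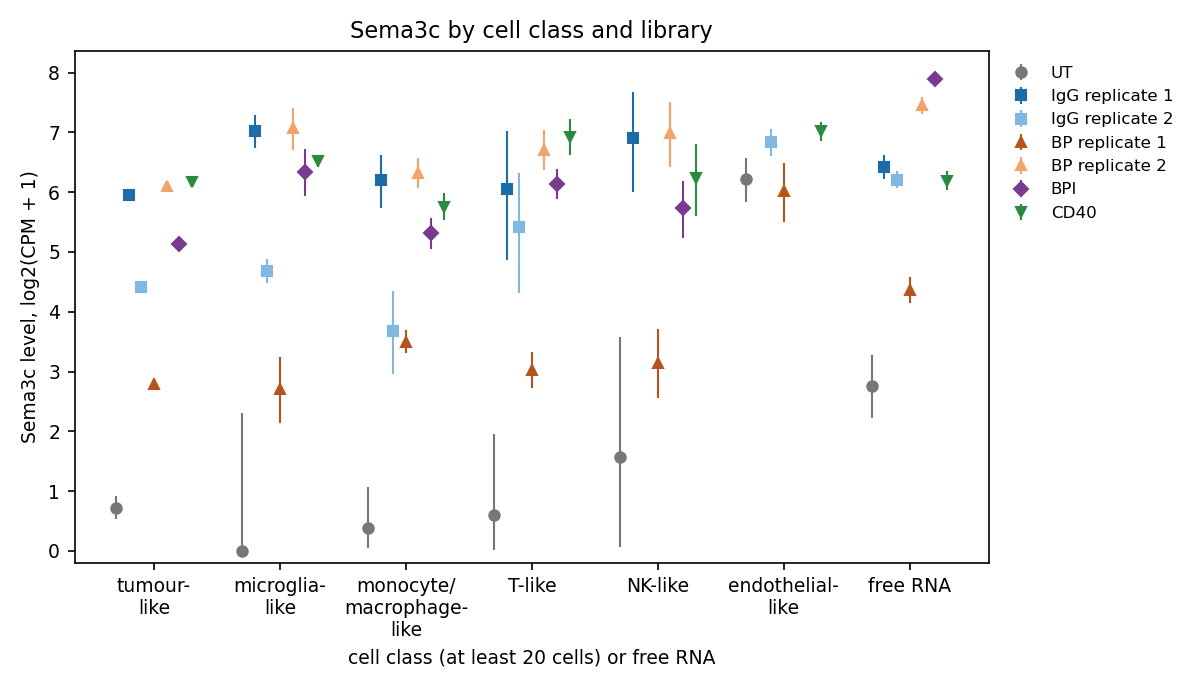
Sema3c level (log2(CPM + 1)) by cell class and library, with exact 95% Poisson bars, and the free RNA profile of each library. In tumour-like, microglia-like, monocyte/macrophage-like and T-like cells UT and BP replicate 1 are the lowest libraries. The points of 1 library still differ by class, in IgG replicate 2 from 11.9 CPM (monocyte/macrophage-like) to 41.5 CPM (T-like). Endothelial-like cells lie at 63.8 to 129 CPM in the 4 libraries that have them.

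The value by which the gene was chosen is the 3.49-fold higher tumour-like level in CD40 than in IgG replicate 2 (log2 ratio 1.80, counting interval 1.74 to 1.87). It was the largest rise among the 9377 genes with at least 10 CPM, measured on log2(CPM + 1), where it was 1.75 and where 0.0853% of the genes rose by more than 1. Of tumour-like cells thinned to 2000 UMIs each, 13.5% (exact binomial interval 12.6 to 14.5) had a Sema3c UMI in CD40 and 3.80% (3.32 to 4.33) in IgG replicate 2. Without thinning the shares were 66.6% and 32.1%, at median depths of 18045 and 19269 UMIs. The same thinned share was 0.238% in UT, 1.17% in BP replicate 1, 7.00% in BPI, 11.2% in IgG replicate 1 and 12.6% in BP replicate 2. Within CD40, the 4 large tumour-like clusters had 66.8 to 73.3 CPM, and the same clusters in IgG replicate 2 had 19.6 to 20.6 CPM. No cluster carried the difference alone. IgG replicate 1, an isotype control of set A, had 3.00 times the level of IgG replicate 2 (counting interval 2.85 to 3.16), close to the ratio of CD40 over IgG replicate 2. Within set A, BP replicate 2 had 1.12 times (1.07 to 1.17) and BPI 0.56 times (0.53 to 0.60) the level of IgG replicate 1.

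Cells other than tumour cells also held Sema3c at levels that differed between libraries, though not in the same order throughout. CD40 was the highest library in tumour-like and T-like cells. In microglia-like and monocyte/macrophage-like cells it lay below IgG replicate 1 and BP replicate 2. Microglia-like cells, the brain's resident macrophages, had 0 CPM in UT, 129 and 24.7 CPM in IgG, 5.53 and 133 CPM in BP, 80.2 CPM in BPI and 91.0 CPM in CD40. UT had 0 Sema3c UMIs in 151 microglia-like cells. Monocyte/macrophage-like cells had 0.307 CPM in UT, 72.5 and 11.9 CPM in IgG, 10.3 and 79.4 CPM in BP, 38.9 CPM in BPI and 53.2 CPM in CD40, in replicate order. T-like cells had 0.515 CPM in UT, 65.5 and 41.5 CPM in IgG (8 and 9 UMIs), 7.18 and 104 CPM in BP, 69.4 CPM in BPI and 121 CPM in CD40. In each of these classes UT and BP replicate 1 were the 2 lowest libraries. Free RNA could make up at most 28.7% of the T-like level in the 6 libraries other than UT and 46.6% of the microglia-like level. In monocyte/macrophage-like cells that bound was 60.9% in BPI, 60.7% in IgG replicate 2, 10.2% to 19.96% in CD40, both BP libraries and IgG replicate 1, and 100% in UT. In CD40, the share of T-like cells with a UMI after thinning was 19.2% (exact binomial interval 12.6 to 27.4), beside 13.5% of tumour-like cells, at median depths of 4900 and 18045 UMIs, so neither share is read as expression by that class. The free RNA itself had 72.2 CPM in CD40 and 73.0 CPM in IgG replicate 2, a ratio of 0.99 (0.85 to 1.15). It had 84.6 CPM in IgG replicate 1, 175 CPM in BP replicate 2, 236 CPM in BPI, 19.6 CPM in BP replicate 1 and 5.77 CPM in UT. The part of free RNA in these levels was bounded as given, and no other cause of them was tested.

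NK-like cells had 1.95 CPM of Sema3c in UT, 7.87 CPM in BP replicate 1 and 52.1 to 126 CPM in 4 other libraries. The same ratio of CD40 to IgG replicate 2 was taken in the other classes. It was 3.69 (counting interval 3.15 to 4.34) in microglia-like cells, 4.49 (2.68 to 8.04) in monocyte/macrophage-like cells and 2.91 (1.47 to 6.57) in T-like cells. In endothelial-like cells it was 1.14 (0.94 to 1.38). These intervals cover counting error only, and the endothelial-like value pools clusters in which CD40 lay below (cluster 0.0) and above (cluster 0.6) IgG replicate 2. Among genes of at least 10 CPM, the rise of Sema3c ranked 9 of 8660 in microglia-like cells and 26 of 8403 in monocyte/macrophage-like cells. It ranked 613 of 7796 in T-like cells and 2625 of 8848 in endothelial-like cells. These ranks describe 1 library against 1 library and carry no test.

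Endothelial-like cells had 73.4 CPM of Sema3c in UT, 113 CPM in IgG replicate 2, 63.8 CPM in BP replicate 1 and 129 CPM in CD40. UT and BP replicate 1, with the lowest levels elsewhere, thus had Sema3c here well above their tumour-like cells, and free RNA could make up at most 3.66% and 9.41% of it. In UT the endothelial-like level rests on 59 UMIs in 49 cells, of which 40.8% had a UMI. The endothelial-like cells were not uniform. A cluster led by Spock2, Slco1a4, Itm2a and Cxcl12, genes of brain capillaries, had 350 CPM in UT, 547 CPM in IgG replicate 2 and 421 CPM in CD40. A cluster led by Apln and Prnd, genes of sprouting vessels, had 60.2 CPM in IgG replicate 2 and 76.2 CPM in CD40. The first of these clusters was shallow, at 0.268 of the median depth of its libraries.

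The weight of the library in the Sema3c level was compared with that of other genes. Over 28 sums (tumour-like, monocyte/macrophage-like, microglia-like and T-like cells in 7 libraries, log2(CPM + 1)), differences between libraries held 95.9% of the variance of Sema3c and differences between classes 1.28%. This was the highest library share among 9405 genes. As Sema3c was chosen by a difference between CD40 and IgG replicate 2, both among these libraries, the rank is no independent support. Plxnd1 had 24.3% between libraries and 59.7% between classes, and Plxna2 11.7% and 75.9%. Sema6a had 4.85% and 86.5%, Sema4d 1.43% and 94.6%, and Plxnb2 1.43% and 92.4%. All 5 thus varied more by class than by library over these classes, opposite to Sema3c. As classes come from clustering the same genes, these shares are a description. They leave out endothelial-like cells, so the small class share of Sema3c does not cover that class. Sema3c there was 73.4 CPM in UT and 63.8 CPM in BP replicate 1, well above the tumour-like cells of these libraries.

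**Figure D2:**
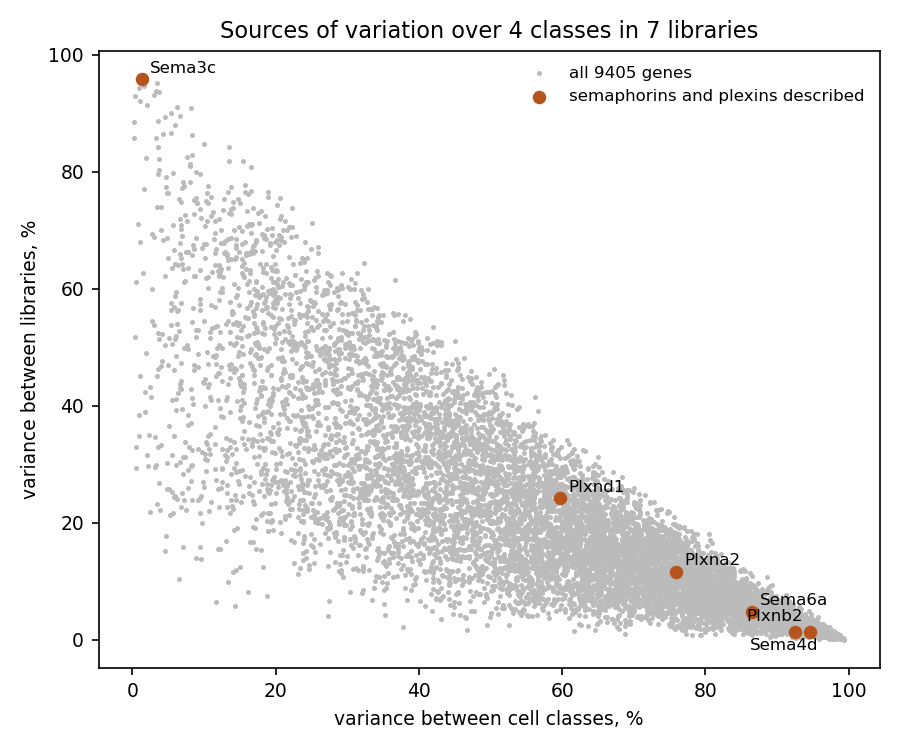
Percent of the variance in log2(CPM + 1) that lies between cell classes (horizontal) and between libraries (vertical) for 9405 genes over 28 class and library sums. Endothelial-like cells are not among the sums. Sema3c lies at the top left, with 95.9% between libraries and 1.28% between classes, and the other 5 labelled members lie to the right with 59.7% to 94.6% between classes.

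The 5 genes whose pattern was most like that of Sema3c, over 51 class and library sums and among 9374 genes, were AY036118 (Pearson r 0.86), Lars2 (0.85), Cdk8 (0.85), Cmss1 (0.85) and Gm15564 (0.84). The sums share libraries and depth, and r is given as a description. AY036118 is a noncoding RNA (chromosome 17, 39847113 to 39848035) that overlaps Gm42418 and CT010467.1, so its counts are uncertain. Gm15564 is an antisense RNA (chromosome 16, 35966752 to 35983230) that overlaps Parp9 and Kpna1, both on the other strand. Lars2 (chromosome 9, 123366927 to 123462666) encodes the mitochondrial leucyl-tRNA synthetase, and Cdk8 (chromosome 5, 146231230 to 146302874) a kinase of the Mediator complex. Cdk8 overlaps Gm15739 on the same strand, so its counts are uncertain too. Cmss1 lies on chromosome 16, 57302000 to 57606864. In tumour-like cells Lars2 had 19.2 CPM in UT, 96.2 CPM in BP replicate 1 and 202 to 289 CPM in the other 5 libraries, and AY036118 had 7.32, 76.2 and 348 to 517 CPM in the same order. Both were low in UT and BP replicate 1, as Sema3c was. Unlike Sema3c, both were close in CD40 and IgG replicate 2, with 289 and 252 CPM of Lars2 and 517 and 482 CPM of AY036118.

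The other class 3 ligands were scarce. Sema3a (chromosome 5, 13125414 to 13602565), the classical collapsing factor for axons, had 0.395 to 1.38 CPM in tumour-like cells, with the 3 set A libraries at 0.395 to 0.451 CPM and the other 4 at 0.885 to 1.38 CPM. Sema3e (chromosome 5, 14025276 to 14256689), the direct ligand of Plxnd1, had 0.115 to 0.694 CPM there, from 11 to 69 UMIs a library. Sema3a, Sema3e and Sema3c lie within 4.605 Mb of chromosome 5. Of the immune classes, none had more than 1.55 CPM of Sema3a among T-like, microglia-like and monocyte/macrophage-like cells, and Sema3e had 0 to 2 UMIs there in each library except CD40, where microglia-like cells had 5. Sema3a stood apart in endothelial-like cells of BP replicate 1, at 76.9 CPM against 1.24 CPM in UT, 1.35 CPM in IgG replicate 2 and 5.29 CPM in CD40. That level rests on 41 UMIs in 9 of 33 cells, with 14 in a single cell. The 14 UMIs in 1 cell are 34.1% of the total, so the value depends on few cells.

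Sema4d (chromosome 13, 51685529 to 51793747, minus strand) encodes CD100, a membrane ligand of B plexins and, on immune cells, of Cd72. It was high in most immune classes and in oligodendrocyte-like cells. T-like cells had 180 CPM in UT, 197 and 106 CPM in IgG, 333 and 158 CPM in BP, 129 CPM in BPI and 176 CPM in CD40, in replicate order. Microglia-like cells had 114 CPM in UT, 148 and 167 CPM in IgG, 185 and 176 CPM in BP, 159 CPM in BPI and 215 CPM in CD40. By cluster, UT had 91.2 CPM in cluster 14 and 155 CPM in cluster 15, where the other 5 libraries with at least 20 cells had 159 to 217 CPM. Monocyte/macrophage-like cells had 173 CPM in UT, 143 and 96.3 CPM in IgG, 109 and 165 CPM in BP, 174 CPM in BPI and 132 CPM in CD40. In BP replicate 1, 1653 of the 1805 cells lay in cluster 21, with 104 CPM, a cluster in which every other library had fewer than 20 such cells. In cluster 10, shared by all 7 libraries, BP replicate 1 had 181 CPM and the others 96.3 to 174 CPM. The ranges of the 3 classes overlapped, and free RNA could make up at most 4.78% of any of these levels. NK-like cells had 69.0 to 281 CPM in 6 libraries, B-like cells 185 to 193 CPM in 3 and plasmacytoid dendritic-like cells 182 to 378 CPM in 3. Dendritic-like cells, led by Ccr7 and Ccl22, had 14.1 and 16.1 CPM in the 2 libraries with at least 20 of them, below every other immune class. Oligodendrocyte-like cells had 204 CPM in IgG replicate 2 and 245 CPM in CD40. Tumour-like cells had 10.7 to 19.9 CPM, of which free RNA could make up 12.7% to 38.4%. In endothelial-like cells the 4.54 to 9.95 CPM of Sema4d were no more than free RNA could supply.

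Sema6a (chromosome 18, 47235598 to 47368870, minus strand) encodes a transmembrane ligand of Plxna2 and Plxna4 and was highest in endothelial-like cells. They had 245 CPM in UT, 394 CPM in IgG replicate 2, 773 CPM in BP replicate 1 and 333 CPM in CD40, with at most 6.97% from free RNA. Tumour-like cells had 64.2 CPM in UT, 36.1 and 75.2 CPM in IgG, 73.5 and 29.4 CPM in BP, 27.6 CPM in BPI and 75.9 CPM in CD40, in replicate order. The 3 set A libraries were the 3 lowest. Oligodendrocyte-like cells had 250 CPM in IgG replicate 2 and 212 CPM in CD40. Among lymphoid cells, NK-like cells had 12.4 to 64.5 CPM, and T-like cells at most 2.14 CPM. Microglia-like and monocyte/macrophage-like cells had 0 to 10.4 CPM.

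**Figure D3:**
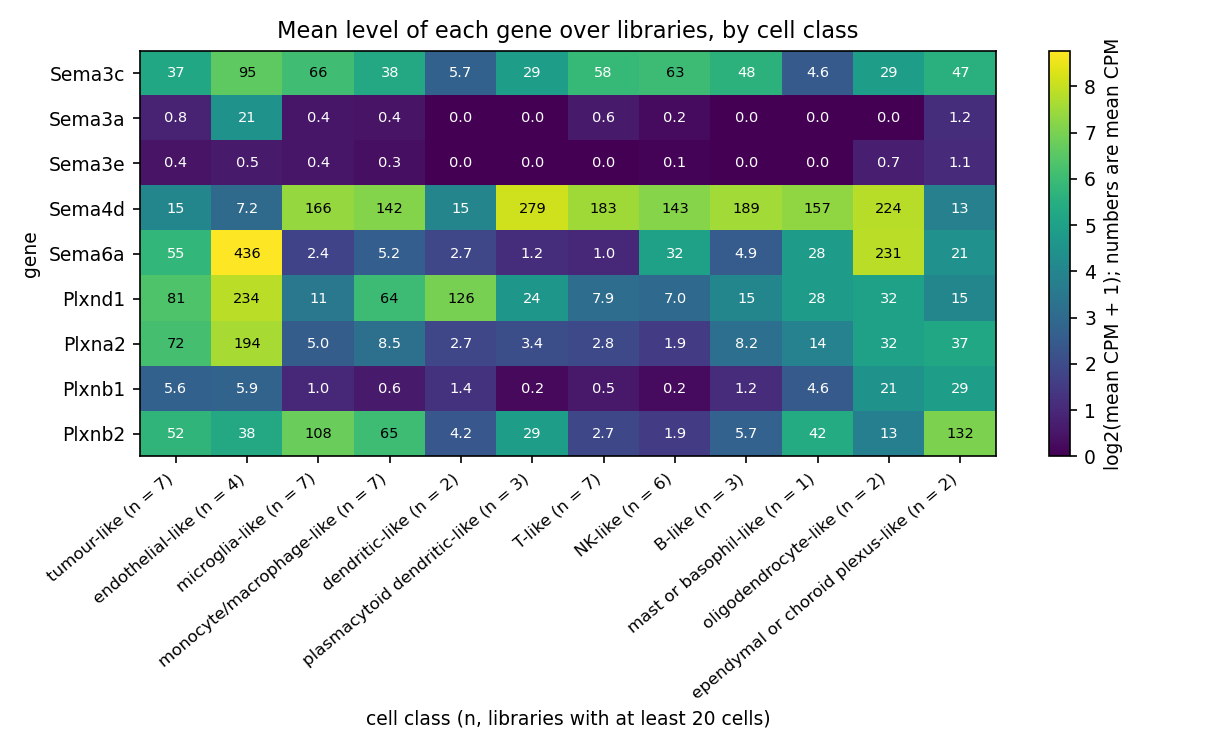
Mean level of each of the 9 genes (CPM, log colour scale) in each cell class over the libraries with at least 20 such cells, whose number stands beside the class. Sema4d is high in most immune classes and in oligodendrocyte-like cells, and low in dendritic-like cells. Sema6a is highest in endothelial-like and oligodendrocyte-like cells, Plxnd1 in endothelial-like and dendritic-like cells, and Plxna2 in endothelial-like and tumour-like cells.

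Plxnd1 (chromosome 6, 115954811 to 115995005, minus strand) encodes the receptor of Sema3e and, with neuropilins, of Sema3c, and is known for its part in vessel patterning. Its promoter is printed with that of Plxnb2, because these plexins differ below in tumour-like cells: Plxnd1 was lower in one set of libraries and Plxnb2 was not. The runs are the 250 bases before the transcription start (RefSeq, GRCm38, 5′ to 3′ on the gene's strand, chr6:115995006-115995255 and chr15:89180789-89181038, both on the minus strand), with each GC box in capitals, GGGCGG or its reverse complement CCGCCC.
Plxnd1: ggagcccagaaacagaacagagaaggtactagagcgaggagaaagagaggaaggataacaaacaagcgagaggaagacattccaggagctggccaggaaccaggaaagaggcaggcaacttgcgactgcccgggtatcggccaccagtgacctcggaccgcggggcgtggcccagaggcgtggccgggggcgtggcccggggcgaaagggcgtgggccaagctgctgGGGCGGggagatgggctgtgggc
Plxnb2: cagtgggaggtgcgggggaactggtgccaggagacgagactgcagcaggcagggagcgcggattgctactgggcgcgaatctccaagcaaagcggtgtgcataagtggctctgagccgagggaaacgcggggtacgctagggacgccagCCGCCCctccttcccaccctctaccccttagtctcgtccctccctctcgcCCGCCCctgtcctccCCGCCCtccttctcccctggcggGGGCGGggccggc
The Plxnd1 window held 1 GC box and 16 CpG dinucleotides at 64.8% GC, and that of Plxnb2 4 GC boxes and 20 CpG dinucleotides at 69.2% GC. RefSeq has another start of Plxnb2 inside the gene, whose window (chr15:89173952-89174201, not printed) held 3 GC boxes and 13 CpG dinucleotides at 63.6% GC. Of 32841 promoter windows of this length, 32.7% held a GC box, and the median number of CpG dinucleotides was 6. Neither window held TATAAA (12.4% of all windows on either strand) or CACGTG (6.02%). Such matches describe the letters only.

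In tumour-like cells Plxnd1 had 108 CPM in UT, 29.8 and 122 CPM in IgG, 138 and 23.3 CPM in BP, 19.6 CPM in BPI and 126 CPM in CD40, in replicate order. The 3 libraries of set A had 19.6 to 29.8 CPM and the other 4 had 108 to 138 CPM, with no overlap. Within set B, CD40 had 1.04 times the level of IgG replicate 2 (counting interval 1.01 to 1.06). In set A, BP replicate 2 had 0.78 times (0.73 to 0.84) and BPI 0.66 times (0.61 to 0.71) the level of IgG replicate 1. Each ratio sets a single library against another, so treatment cannot be told apart from library. Plxna2 (chromosome 1, 194618218 to 194816869, plus strand), an A plexin that pairs with neuropilins and binds Sema6a directly, had 63.7 CPM in UT, 51.2 and 109 CPM in IgG, 77.0 and 46.5 CPM in BP, 41.7 CPM in BPI and 116 CPM in CD40. Set A was again the lowest, at 41.7 to 51.2 CPM against 63.7 to 116 CPM. Plxnb2 (chromosome 15, 89155549 to 89180788, minus strand), a receptor of class 4 semaphorins, had 46.1 CPM in UT, 63.8 and 38.0 CPM in IgG, 75.0 and 54.4 CPM in BP, 49.0 CPM in BPI and 40.9 CPM in CD40. Its set A levels lay inside the range of the other libraries. Plxnb1 (chromosome 9, 109095389 to 109119917, plus strand), the receptor of Sema4d, was low at 2.30 to 11.1 CPM, with BP replicate 1 highest. Its set A levels of 2.30 to 3.71 CPM lay below those of the other libraries, at 5.51 to 11.1 CPM.

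Of the 6 members with a mean of at least 10 CPM in tumour-like cells, 3 (Plxnd1, Plxna2 and Sema6a) were lower in all 3 libraries of set A than in all 4 others, and 0 were higher. Of all 9374 genes at that level, 30.8% were lower in set A in this sense and 7.74% were higher. Of 42 genes of the semaphorin pathway lists at that level, members included, 24 were lower and 1, Rras, was higher. Sema6d, a transmembrane ligand with the highest mean of any semaphorin in tumour-like cells, had 73.5 CPM in UT, 100.03 CPM in IgG replicate 2, 124 CPM in BP replicate 1, 95.4 CPM in CD40 and 1.10 to 3.13 CPM in set A. Nrp1, the neuropilin co-receptor of class 3 ligands, ranged from 0.213 to 0.323 CPM in set A, against 16.5 to 56.4 CPM in the other libraries. The labels record nothing about the sets beyond the library names, and a technical origin of these differences was not tested.

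**Figure D4:**
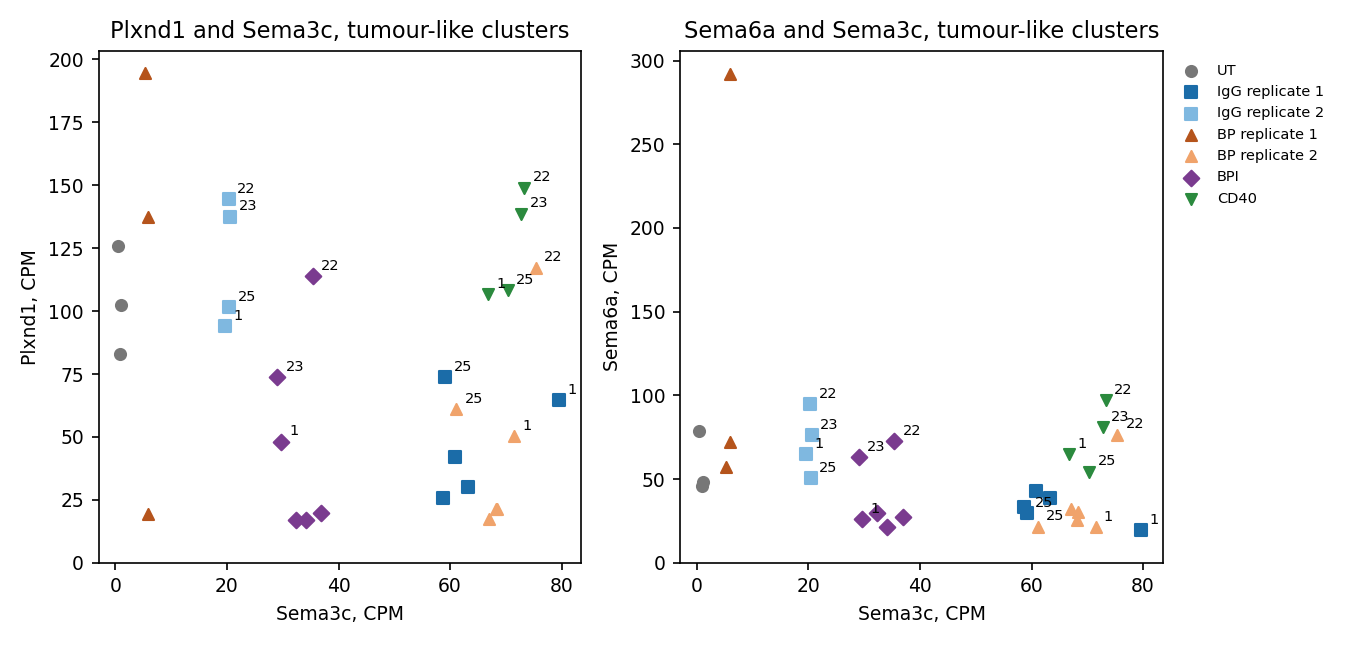
Plxnd1 (left) and Sema6a (right) against Sema3c, in CPM, for each tumour-like cluster and library, with 1 point per cluster and library. The numbers mark the 4 clusters that set A and set B share. For Plxnd1 the set A points of these clusters, at 48.2 to 117 CPM, lie below the set B points of the same cluster and above the other set A points.

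Small numbers of tumour-like set A cells, 23 to 76 of a library, lay in 4 clusters filled mostly by set B (clusters 1, 22, 23 and 25). Their Plxnd1 was below that of the set B cells in each of these clusters. In cluster 1 it was 48.2 to 64.5 CPM, against 107 CPM in CD40 and 94.1 CPM in IgG replicate 2. In cluster 25 it was 61.1 and 73.9 CPM (against 108 and 102 CPM), in cluster 23 73.8 CPM (against 139 and 138 CPM) and in cluster 22 114 and 117 CPM (against 149 and 145 CPM). In the 3 clusters of set A alone, Plxnd1 had 16.9 to 42.2 CPM. Sema6a differed among the shared clusters. Its set A levels of 19.4 to 25.9 CPM in cluster 1 and 21.6 and 29.6 CPM in cluster 25 were like those of the set A clusters (21.6 to 42.6 CPM) and below set B, which had 64.9 CPM in both libraries in cluster 1 and 50.6 and 54.5 CPM in cluster 25. In cluster 23 it was 63.3 CPM in BPI (against 81.0 and 76.2 CPM), and in cluster 22 72.7 and 76.6 CPM (against 97.1 and 94.6 CPM). Sema3c in the shared clusters lay at 66.8 to 73.3 CPM in CD40 and 19.6 to 20.6 CPM in IgG replicate 2. Set A cells there had 61.1 to 75.4 CPM (BP replicate 2), 29.0 to 35.4 CPM (BPI) and 59.1 and 79.6 CPM (IgG replicate 1) of it. Clusters were built from these genes, so this is a description.

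Endothelial-like cells had 123 CPM of Plxnd1 in UT, 369 CPM in IgG replicate 2, 148 CPM in BP replicate 1 and 297 CPM in CD40, above the tumour-like level of each of these libraries. Free RNA could make up 33.6% of it in UT, 30.4% in BP replicate 1 and at most 11.4% in the other 2. In UT and BP replicate 1 this part was larger than the gap to the tumour-like level, so no order is read there. The cluster led by Apln and Prnd had 399 to 454 CPM of Plxnd1 and the capillary cluster 47.8 to 121 CPM, the reverse of their order for Sema3c. Plxna2 was also higher in endothelial-like than in tumour-like cells of each library, with 108 CPM in UT, 212 CPM in IgG replicate 2, 238 CPM in BP replicate 1 and 220 CPM in CD40. Cells left unnamed had more, with 377 CPM in BP replicate 1, 390 CPM in CD40 and 327 CPM in IgG replicate 2, but 51.7 CPM in UT. Among them, a cluster with 11 of 12 tumour markers raised held 416, 254 and 185 cells of BP replicate 1, CD40 and IgG replicate 2. The tumour-like levels leave these cells out. The co-receptors Nrp1 (187 to 414 CPM) and Kdr, the main VEGF receptor (307 to 754 CPM), were measured in the endothelial-like cells.

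Among myeloid cells the plexins divided by class. Microglia-like cells had Plxnb2 at 48.0 CPM in UT, 136 and 125 CPM in IgG, 136 and 104 CPM in BP, 83.2 CPM in BPI and 127 CPM in CD40, in replicate order, with at most 14.6% from free RNA. By cluster, UT had 33.2 CPM of Plxnb2 in cluster 14 and 74.7 CPM in cluster 15, where the other 5 libraries with at least 20 cells had 86.8 to 137 CPM, while BP replicate 1 had 136 CPM in cluster 14. The highest plexin mean there was that of Plxna4, at 180 CPM (range 75.7 to 295). Plxnd1 had 1.46 to 23.7 CPM in microglia-like cells, and free RNA could make up 42.9% to 100% of it. Monocyte/macrophage-like cells had 41.3 to 99.5 CPM of Plxnb2. Their Plxnd1 was 33.3 CPM in UT, 35.4 and 54.1 CPM in IgG, 217 and 29.4 CPM in BP, 21.5 CPM in BPI and 55.2 CPM in CD40. BP replicate 1 stood above all 6 others, and its partner BP replicate 2 did not. Of the monocyte/macrophage-like cells of BP replicate 1, 1653 lay in a cluster led by Ccl8, Ccl24, Mrc1 and Arg1 that held at most 5 cells of any other library, and had 226 CPM. The 152 cells in the cluster common to all libraries had 79.5 CPM, against 21.2 to 54.1 CPM in that cluster elsewhere. Dendritic-like cells had 53.6 CPM of Plxnd1 in UT and 198 CPM in BP replicate 1. T-like cells had 0 to 5.15 CPM of Plxnb2 and 0 to 22.5 CPM of Plxnd1. Their highest plexin was Plxnc1, with a mean of 33.4 CPM (range 15.5 to 41.5). Of the co-receptors and other receptors, Tyrobp, an adaptor of immune receptors, had the highest mean in microglia-like (2181 CPM) and monocyte/macrophage-like cells (2490 CPM), and Itgb1, an integrin chain, in tumour-like (234 CPM), endothelial-like (538 CPM) and T-like cells (296 CPM). Ependymal or choroid plexus-like cells had 149 CPM of Plxnb2 in IgG replicate 2 and 115 CPM in CD40.

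The treatments were compared with IgG within tumour-like, monocyte/macrophage-like, microglia-like and T-like cells, on UMIs summed per library and class. The edgeR quasi-likelihood test called 0 members at an adjusted p of 0.05 in each of 11 comparisons, of 9 members tested in tumour-like, 6 in monocyte/macrophage-like, 5 in microglia-like and 4 in T-like cells. The 3 others in monocyte/macrophage-like cells, 4 in microglia-like and 5 in T-like cells had too few counts for the test. The tumour-like CD40 comparison was left out, since the genes were chosen with it in view. The CD40 results of Sema3c in the other classes come from the same libraries, so they are no test of that gene. As background, the test called 0% of 20320 genes in tumour-like cells for BP and for BPI. It called 0% of 11900 genes in monocyte/macrophage-like and 0% of 12433 in microglia-like cells in all 3 comparisons. In T-like cells it called 1.03% of 9160 genes for BP, 0.579% for BPI and 0.109% for CD40. DESeq2 also called 0 members in each. Of all genes it called 0.315% for BP and 0.0295% for BPI in tumour-like cells. For BP, BPI and CD40 it called 0.924%, 1.61% and 0.0336% in monocyte/macrophage-like, 0.346%, 0.161% and 0% in microglia-like, and 0.0546%, 0.142% and 0% in T-like cells. The share of members called thus did not differ from the background, which is no result about them. Each library counts as 1 replicate of pooled mice, p-values measure only the spread between libraries, and the lone BPI and CD40 libraries were taken to vary like IgG and BP. IgG and BP each mix set A with other libraries, and the fit had no term for sets, so set differences are part of that spread. With a term for set A, chosen after seeing the data, edgeR called 10 of 20320 genes and 0 members in tumour-like cells for BP.

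At unadjusted p under 0.05 edgeR gave 5 of 63 member results over all comparisons: 2 in monocyte/macrophage-like cells for BP, 1 in microglia-like cells for BPI, and 1 each in T-like cells for BP and CD40. As background, the share of all genes at that p was 2.03% for BP and 1% for BPI in tumour-like cells. For BP, BPI and CD40 it was 8.05%, 10.9% and 1.03% in monocyte/macrophage-like, 4.76%, 3.12% and 0.434% in microglia-like, and 7.82%, 6.68% and 3.85% in T-like cells. So few member results are not set apart from these shares. In monocyte/macrophage-like cells of BP against IgG, Plxna2 had a log2 difference of -2.07 ± 0.75 (SE; adjusted p 0.499 with edgeR). It had 5.06 and 28.2 CPM in IgG and 4.99 and 2.50 CPM in BP, and free RNA could make up 28.2% to 86.9% of those levels. Sema6a differed by -2.04 ± 0.72 (SE; edgeR adjusted p 0.479), with 10.1 and 10.4 CPM in IgG and 2.66 and 1.88 CPM in BP. Its direction was lost with doublets kept (0.052), the difference was -5.82 with free RNA subtracted, and free RNA could make up 17.7% to 100% of these levels. Both rest on few molecules, as IgG had 3 and 38 UMIs of Plxna2 and 6 and 14 UMIs of Sema6a. The Plxna2 difference depended on single IgG libraries. Without IgG replicate 2 it was -0.29 (edgeR adjusted p 0.999993), and without IgG replicate 1 it was -2.71 (adjusted p 0.0213). With doublets kept, Plxna2 had a difference of -0.58, and with free RNA subtracted -4.08 (edgeR adjusted p 0.381). In microglia-like cells the result was Plxna2, with 0 UMIs in BPI. In T-like cells it was Plxnd1, with 0 UMIs in both IgG libraries (39 and 57 cells), 232 and 4 UMIs in BP and 9 UMIs in CD40. No fold is given against these zeros. With no UMI in IgG, Plxnd1 entered the T-like test only through treated libraries, so its T-like results give no support to a difference.

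Sema3c did not pass the test for BP against IgG in any of the 4 classes tested. Its log2 difference was -0.07 ± 1.23 in tumour-like cells (SE; adjusted p 0.9999 with edgeR), 0.31 ± 1.06 in monocyte/macrophage-like, -0.21 ± 1.32 in microglia-like and -0.09 ± 0.59 in T-like cells (adjusted p 0.980 to 0.996). The SE, worked back from the test statistic, exceeded the difference in each class. Single libraries moved these values. Without BP replicate 2 the difference was -3.59 in microglia-like cells (edgeR adjusted p 4.66e-05), -3.19 in T-like cells (adjusted p 0.00013), -1.89 in monocyte/macrophage-like cells (adjusted p 0.0595) and -2.96 in tumour-like cells (adjusted p 0.518). Without BP replicate 1 it was positive in all 4 classes, at 0.82 to 1.26, and did not pass the test. For CD40 against both IgG libraries it was 1.14 ± 0.64 (SE) in T-like cells, 0.43 ± 1.23 in monocyte/macrophage-like and 0.35 ± 1.49 in microglia-like cells. As Sema3c was chosen by CD40 against IgG replicate 2, these CD40 values are a description and no test of the gene. Plxnd1 in monocyte/macrophage-like cells had 1.47 ± 0.72 for BP (adjusted p 0.676). That value came from BP replicate 1, and without it the difference was -0.44. Without BP replicate 2 it was 2.22 and passed the test (adjusted p 0.000258). Sema4d in T-like cells, where its level was 183 CPM on average, differed by 0.53 ± 0.44 for BP, -0.09 ± 0.52 for BPI and 0.18 ± 0.52 for CD40, with no adjusted p below 0.905.

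**Figure D5:**
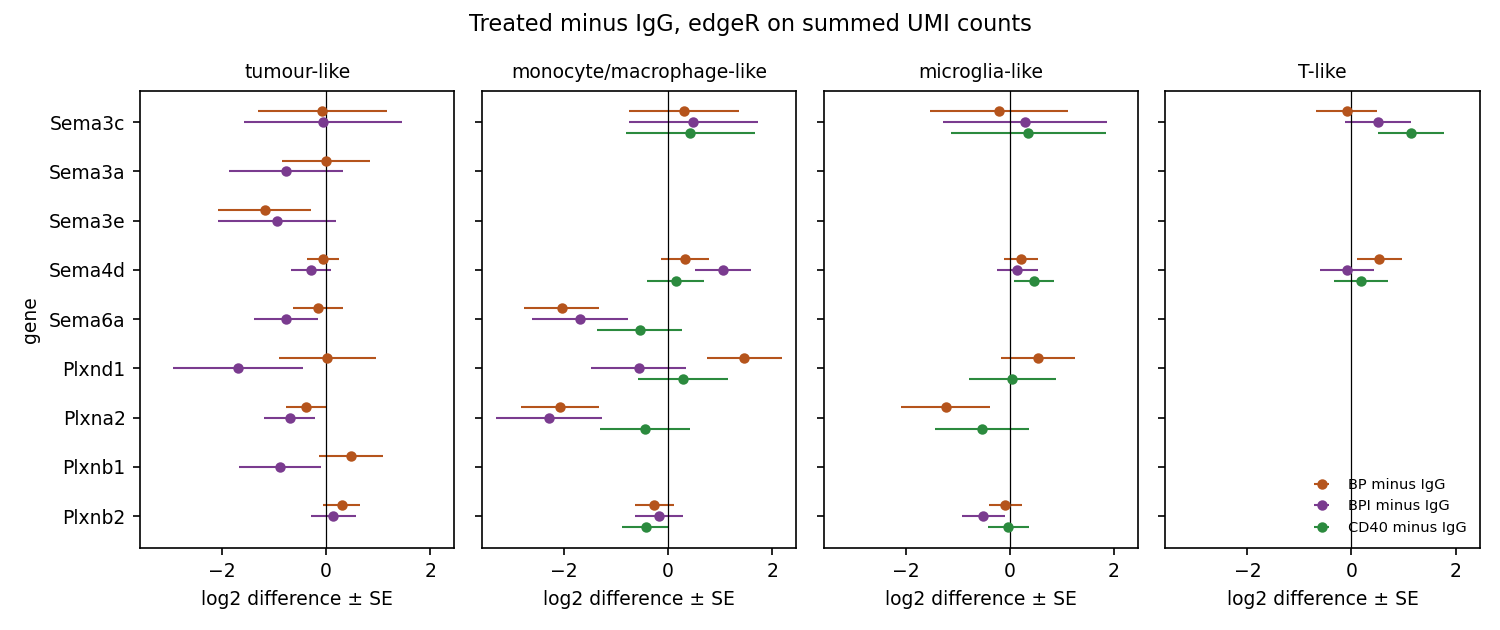
log2 difference from IgG (edgeR, ± SE) of each member for BP, BPI and CD40 in the 4 classes tested. Tumour-like CD40 differences and members with at most 3 UMIs in the treated or the IgG group are left out. Bars of Sema3c are the widest, and no member passed the adjusted threshold.

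Of the 83 genes listed for the pathway (semaphorins, plexins, co-receptors, processing proteases and signal transducers), edgeR tested 81 in tumour-like, 58 in monocyte/macrophage-like, 58 in microglia-like and 40 in T-like cells. It called 2 of 40, both higher in T-like cells of BP than of IgG, where it called 1.03% of all genes, and 0 in the other 10 comparisons. At unadjusted p under 0.05 edgeR gave 5 of 40 listed genes in T-like cells for BP, beside 7.82% of all genes. In monocyte/macrophage-like cells for BP it gave 10 of 58, beside 8.05% of all genes. In the remaining comparisons it gave 0 to 7 listed genes, beside 0.434% to 10.9% of all genes. Whether the listed genes differ from all genes as a set was not tested. DESeq2 called 1 of 58 listed genes in monocyte/macrophage-like cells for BP and 1 for BPI, where it called 0.924% and 1.61% of all genes, and 0 elsewhere. Both calls were of Sema4a, a class 4 membrane semaphorin (chromosome 3, 88435959 to 88461182, minus strand). It had 86.7 CPM in UT, 10.1 and 8.89 CPM in IgG, 103 and 30.0 CPM in BP, 52.5 CPM in BPI and 26.0 CPM in CD40. Both IgG libraries were below all others, on 6 and 12 UMIs, and free RNA could make up at most 2.72% of these levels. In cluster 10 alone BP replicate 1 had 135 CPM. The log2 difference was 2.82 ± 0.72 (SE; DESeq2 adjusted p 0.0157) for BP and 2.96 ± 0.85 (SE; adjusted p 0.0256 with DESeq2) for BPI. With edgeR it was 2.89 and 3.00 but did not pass (adjusted p 0.243 and 0.136). Over the edgeR alternatives the adjusted p ran from 5.97e-07 with the term for set A to 0.726 without IgG replicate 2 for BP, and from 1.23e-07 to 0.539, by the same settings, for BPI. Without BP replicate 1 the difference for BP was 1.89.

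Itga1 (chromosome 13, 114953096 to 115101964, minus strand), which encodes the integrin chain that pairs with Itgb1, had 24.7 CPM in T-like cells of UT, 0 and 4.62 CPM in IgG, 52.1 and 55.4 CPM in BP, 31.7 CPM in BPI and 30.9 CPM in CD40. It was the only one of the 5 co-receptors tested that passed, and their median log2 difference was -0.12, beside 0.04 over all genes. Farp1 (chromosome 14, 121035200 to 121283744, plus strand), a guanine nucleotide exchange factor that binds A plexins, had 122 CPM in UT, 32.8 and 18.5 CPM in IgG, 189 and 87.8 CPM in BP, 74.3 CPM in BPI and 49.7 CPM in CD40. Its log2 difference was 2.31 ± 0.58 (SE; adjusted p 0.0165 with edgeR), and it was the only one of 22 signal transducers that passed (median log2 difference 0.19). Itga1 passed too (edgeR adjusted p 0.0163), but the IgG group had 1 UMI of it in all, so that its ratio of BP over IgG, 17.7 over summed counts, had a counting interval of 3.17 to 702. It entered the test only through treated libraries, so its call gives no support to a difference. Both BP libraries lay above both IgG libraries for each gene, as did BPI, CD40 and UT. IgG had 39 and 57 T-like cells and BP 1292 and 227, and with DESeq2 neither passed (adjusted p 0.485 for Itga1 and 0.283 for Farp1). Without IgG replicate 1 the adjusted p was 0.130 for Itga1 and 0.0752 for Farp1, and without IgG replicate 2 it was 0.334 and 0.666. Without BP replicate 1 that of Farp1 was 0.260, with a log2 difference of 1.86. With doublets kept both calls were lost too (adjusted p 0.292 for Itga1 and 0.341 for Farp1).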

How the data were processed

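The authors deposited raw UMI counts per gene and barcode for 7 libraries, all barcodes included, made with Cell Ranger on mm10 (GRCm38). The file headers name Cell Ranger 4 and the submitters' processing notes version 7.0.1, and which one made the counts was not settled. Per the labels, all libraries used V2 chemistry, but the barcodes of UT come from a list other than that of the other 6 libraries. Other steps are not given in the sources used here, and the hosts' sex is not stated.

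Cells were barcodes of at least 1000 UMIs and 500 genes, with no more than 15% of UMIs from mitochondrial genes, and the highest Scrublet scores were removed as doublets (0.8% per 1000 cells, 4.50% to 8.44% of a library; scanpy 1.11.5). Cells of all libraries were clustered together (Leiden, igraph 0.11.9, 2000 variable genes, 30 components, 15 neighbours, resolution 1, mixed clusters split at 0.5) with no batch correction. A cluster was named from 19 marker lists, needing 3 or more raised markers (a level of 20 CPM, and above 5 CPM plus 4 times the lower quartile over clusters), a rule set after seeing the data. Clusters led by genes of another class, or shallow ones without own markers, stayed unnamed.

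Levels are summed UMIs per 1000000 UMIs of a class, for classes of at least 20 cells in a library, with exact 95% Poisson intervals. A free RNA bound sets the markers of other classes in a class against the profile of barcodes with at most 100 UMIs. BP, BPI and CD40 were tested against IgG on summed counts with edgeR 4.0.16 (R 4.3.3, quasi-likelihood, TMM, filterByExpr), 6 libraries in 1 fit, with Benjamini-Hochberg adjustment over all genes of a class and contrast. The script was tested on simulated data. An SE given with an edgeR difference was worked back from the test, as the absolute log2 difference over the square root of the F statistic. The alternatives were DESeq2 1.42.0, no filter, leaving out a replicate, blocks, free RNA subtraction, doublets kept and a higher cell minimum. A crossed block, a term for set A and levels over the 4 libraries with endothelial-like cells were chosen after seeing the data.

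The members, lists, tests and markers were chosen with earlier results of these data known. Named were all members, listed genes that passed the edgeR or the DESeq2 test, the semaphorin, plexin and co-receptor with the highest mean in a class, and the 5 genes most like Sema3c by Pearson r among those with a mean of at least 10 CPM in tumour-like cells. Rras, Nrp1, Kdr and the genes that lead clusters were named after their values were seen. Positions are from GENCODE on GRCm38. Of the members, Plxna2, Sema3a, Sema3e and Plxnb2 overlap other annotated genes on the same strand. So do AY036118, Cdk8, Farp1, Itga1, Nrp1, Plxnc1 and Sema4a, and the counts of all these genes carry that doubt. Of the 9 members, 8 had a RefSeq promoter entry. Whether replicate numbers pair the libraries was checked by the correlation of same-numbered deviations, which was -0.64 in tumour-like, -0.19 in monocyte/macrophage-like, 0.02 in microglia-like and -0.05 in T-like cells, so the numbers were not taken as pairs.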

Additional observations from a re-analysis of the deposited data

How the results depend on the processing

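The number of members called against IgG was 0 in each of the 11 comparisons and stayed 0 with DESeq2, with free RNA subtracted, with doublets kept and with at least 2000 UMIs per cell. It became 1 in monocyte/macrophage-like cells for BP without a filter (Plxnd1, log2 difference 1.53) and with a term for set A (Plxna2, -2.11), and 0 to 1 when a replicate was left out. With the set A term, chosen after seeing the data, it also became 1 (Sema3c) for CD40 in monocyte/macrophage-like and in T-like cells. That fit sets CD40 largely against IgG replicate 2, the libraries by which Sema3c was chosen, so it is no test of the gene. Leaving out a replicate gave 0 to 1 for BP in microglia-like and T-like cells, in both from BP replicate 2. With the replicate block, BP against IgG gave 0 members in every class. Blocking on number lost the calls of Itga1 and Farp1 (adjusted p 0.477 for each), and 2 libraries a group leave no test of whether each correlates best with its own number. The crossed block, also chosen after seeing the data, called 0 members, and 0 genes in tumour-like, 520 in monocyte/macrophage-like, 0 in microglia-like and 100 in T-like cells. Counts over all genes moved far: for BP in tumour-like cells from 0 to 64 with DESeq2, in monocyte/macrophage-like cells from 0 to 110 with DESeq2, 424 without a filter and 924 without BP replicate 2, in microglia-like cells from 0 to 972 without BP replicate 2, and in T-like cells from 94 to 5 with DESeq2, 2 with doublets kept and 237 without BP replicate 2. Signs changed among the member differences that the report prints, none of which passed the test as the report gives it. In monocyte/macrophage-like cells for BP, Sema6a became 0.052 with doublets kept, and Plxnd1 ranged from -0.44 to 2.22 when a replicate was left out. Leaving out a replicate gave Sema3c for BP a range of -2.96 to 1.04 in tumour-like, -1.89 to 2.10 in monocyte/macrophage-like, -3.59 to 1.34 in microglia-like and -3.19 to 1.01 in T-like cells. With the replicate block Sema3c for BP was -0.14 in monocyte/macrophage-like cells, and in T-like cells it was 0.0063 with DESeq2 and 0.0032 without a filter. For CD40 the leave-one-out ranges of Sema3c were -0.46 to 2.19 in monocyte/macrophage-like and -0.45 to 1.85 in microglia-like cells. Sema4d in T-like cells ranged over -0.45 to 0.30 for BPI, with 0.069 without a filter, and over -0.17 to 0.57 for CD40. The log2 ratio of Sema3c in tumour-like cells of CD40 over IgG replicate 2 moved from 1.80 to 2.35 with free RNA subtracted and to 1.74 with TMM scaling. The share of tumour-like cells with a Sema3c UMI was 6.16% in CD40 and 2.12% in IgG replicate 2 at 1000 UMIs, 24.6% and 7.85% at 4000 UMIs, and 66.6% and 32.1% without thinning. By mean over libraries, 7 of the 9 members were highest in endothelial-like cells among the 5 main classes, and 6 with free RNA subtracted, when Plxnb1 was highest in tumour-like cells. The endothelial-like means cover 4 libraries. Over those libraries alone, a choice made after seeing the data, it was also 6, with Plxnb1 at 7.49 CPM in tumour-like and 5.86 CPM in endothelial-like cells. Sema3e had 5 endothelial-like UMIs in all, and the Sema3a mean rests on BP replicate 1. Outside the 5 main classes, Plxnb1 had a mean of 29.1 CPM in ependymal or choroid plexus-like cells, above both of these classes. No share over all genes stands beside the count of members highest in endothelial-like cells, so it is no result about them. The cause of these shifts was not tested. IgG held 39 to 78 T-like or monocyte/macrophage-like cells a library, which limits the counts behind those results.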

Other observations

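Other semaphorin genes showed patterns of their own, chosen here after their values were seen. Sema4a, a class 4 ligand expressed by myeloid cells, had 86.7 CPM in monocyte/macrophage-like cells of UT, 10.1 and 8.89 CPM in IgG, 103 and 30.0 CPM in BP, 52.5 CPM in BPI and 26.0 CPM in CD40, in replicate order. Both IgG libraries were the lowest, on 6 and 12 UMIs. Sema7a, a membrane-anchored ligand of integrins and Plxnc1, had a mean of 198 CPM in dendritic-like cells, where Plxnc1 had 171 CPM in UT and 752 CPM in BP replicate 1, the libraries with such cells. Plxnb3, a plexin of myelinating cells, had 131 CPM in IgG replicate 2 and 74.3 CPM in CD40 in oligodendrocyte-like cells, which also had the highest mean of Sema6d among the classes, from 319 CPM in IgG replicate 2 and 240.5 CPM in CD40. Sema3b, a secreted ligand, had 106 CPM in IgG replicate 2 and 90.2 CPM in CD40 in ependymal or choroid plexus-like cells and 2.32 to 5.59 CPM in tumour-like cells. Nrp2, the second neuropilin, had 82.1 to 189 CPM in endothelial-like cells and 0.967 to 3.33 CPM in tumour-like cells. Cd72, the immune receptor of Sema4d, had 141 to 308 CPM in B-like cells and at most 4.03 CPM in T-like cells.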
